A study of Mus musculus with 4 samples.

Results

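The genes described here encode the proteins of the cytosolic ribosome. They were taken as every array probe whose transcript accession carries a mouse symbol of the Rpl or Rps series, with Rplp0, Rplp1, Rplp2 and Rpsa, and no measured value entered that choice. This gave 82 genes on 118 probes, 50 genes of the large subunit and 32 of the small subunit, out of 16995 named genes and 41105 probes on the array. The symbol table held 89 such genes, and the 7 without a probe were Rpl10l, Rpl32l, Rpl6l, Rps12l1, Rps3a2, Rps3a3 and Rps4l. The samples were organ primordia of ICR mouse embryos, an outbred stock, at E11.5, without a genetic change or a treatment. Lung, esophagus, stomach (spelled "gustric" in the labels) and intestine gave 1 array each, hybridised with Cy3-labelled RNA after a low-input amplification. The extraction text of all 4 samples names the stomach, so the organ was taken from titles and tissue labels, and whether embryos were pooled is not given in the sources used here. With 1 array an organ there is no replicate and no test between organs. All differences below are values of these 4 arrays, and a difference of 2-fold (1 on the log2 scale) is used only as a fixed size. The tissues were bulk samples, in which fewer cells of a type and less RNA per cell cannot be told apart.

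Ribosomal protein genes are transcribed in nearly all cells, and their products are made in matched amounts because each enters the ribosome as a single copy, apart from the acidic stalk proteins. Many of their mRNAs start with a run of pyrimidines at the 5′ end, through which growth signals acting on mTOR control their translation. Shortage of single members is known to disturb particular tissues, among them red blood cell precursors (Rps19, Rpl5, Rpl11) and the axial skeleton (Rpl38).

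The bases around the transcription start are shown for members whose values are described below, because a pyrimidine run at the start is known from many of these genes. Each line gives 15 bases before and 15 bases from the annotated start on, 5′ to 3′ on the gene's strand, and capitals mark the longest run of C and T in the window. The marked run need not lie at the start. In Rplp0 it lies wholly before the annotated start, and in Rps12, Rpsa and Rpl22l1 it begins after the start base. The sequences are RefSeq's, build GRCm38.p6, and were chosen after the windows had been seen.
Rplp0: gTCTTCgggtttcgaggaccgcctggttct
Rplp2: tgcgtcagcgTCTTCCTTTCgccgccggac
Rps12: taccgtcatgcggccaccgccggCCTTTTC
Rps6: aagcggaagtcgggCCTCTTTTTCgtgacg
Rpsa: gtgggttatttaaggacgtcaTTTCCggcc
Rpl27a: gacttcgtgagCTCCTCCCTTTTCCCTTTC
Rpl38: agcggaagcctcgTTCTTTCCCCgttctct
Rpl22l1: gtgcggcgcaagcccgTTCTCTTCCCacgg
The windows lie at chr5:115559452-115559481 (Rplp0, plus strand), chr7:141447636-141447665 (Rplp2, plus), chr10:23787195-23787224 (Rps12, minus), chr4:86857353-86857382 (Rps6, minus), chr9:120127751-120127780 (Rpsa, plus), chr7:109519180-109519209 (Rpl27a, plus), chr11:114668565-114668594 (Rpl38, plus) and chr3:28805493-28805522 (Rpl22l1, plus). The run was 19 bases long in Rpl27a, 10 in Rplp2, Rps6, Rpl38 and Rpl22l1, 7 in Rps12, and 5 in Rplp0 and Rpsa. RefSeq's table held 74 start sites for 62 of the 82 members. A run of 8 or more pyrimidines lay in the 30-base window of 28 of these 74 sites (37.8%), against 12% of all 32851 start sites in the table.

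Among fixed words searched on the gene's strand from 25 bases before to 50 bases after the start, CTCTTT was present at 27.0% of the members' sites and 2.81% of all sites. CTTTCC, which can overlap CTCTTT, was present at 25.7% and 3.50%. The word CCGGAAG, part of the sequence that ETS-family factors bind, was searched on both strands over the whole stored promoter and was present at 36.5% of the members' sites and 8.86% of all. These are matches of letters and describe the sequences only.

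The arrays differed in brightness. The 75th percentile of the probe signals, the value to which each array was scaled, was 32.0 on the lung array, 379 on esophagus, 320.2 on stomach and 991 on intestine, and 39.0% of the spots were well above background on lung against 67.9% to 74.0% on the other 3 arrays. No spot was saturated. Copies of the same probe within an array had a median SD between 0.07 and 0.11 (log2), which covers spot-to-spot error only. The markers of lung, stomach and intestine were highest on the arrays of their own label. Their log2 levels over the 75th percentile were 2.47 for Nkx2-1 on lung, 4.49 for Barx1 on stomach and 1.90 for Cdx2 on intestine. Sox2, a marker of the foregut and not of the esophagus alone, stood at 1.09 on esophagus and 0.63 on stomach. Nkx2-1 (-1.10) and Barx1 (0.92) were also well above background on esophagus. Markers of other tissues were also present: all 9 heart and striated muscle markers were well above background on esophagus, where their summed level was 7.09 (log2) against 1.55 to 3.26 on the other arrays. All 7 embryonic red cell markers were well above background on every array, with summed log2 levels of 10.44 on lung, 8.48 on esophagus, 8.97 on stomach and 8.44 on intestine. Of 5 liver markers with a probe, 5 were well above background on intestine, 4 on esophagus, 4 on stomach and 3 on lung, with summed log2 levels of 5.93, 3.30, 1.71 and 4.72.

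Nearly all ribosomal protein genes were detected in all 4 organs: 80 of the 82 were well above background on every array, against 9497 of all 16995 named genes. On the scale used here, log2 signal over the array's 75th percentile, the median over these 80 members was 8.26 on lung, 7.91 on stomach, 7.72 on esophagus and 7.25 on intestine. The highest of its 4 values was on lung for 56 members, on stomach for 22, and on esophagus and on intestine for 1 each. The lowest value was on intestine for 58 members, on esophagus for 17, on lung for 4 and on stomach for 1. This order depended on the scaling. With median centring lung was the highest array for 68 members, but the lowest was esophagus for 41 and intestine for 37. After quantile normalization lung was the highest array for 29 members and the lowest for 29, and after a normexp background correction (which models the background and adds an offset of 50) lung was the lowest for 60. Such counts were not made over all genes, so they do not show a trait of the members. On the 75th percentile scale lung was also above esophagus, stomach and intestine over the 9497 genes bright on all arrays, by medians of 0.37, 0.22 and 0.22.

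**Figure D1:**
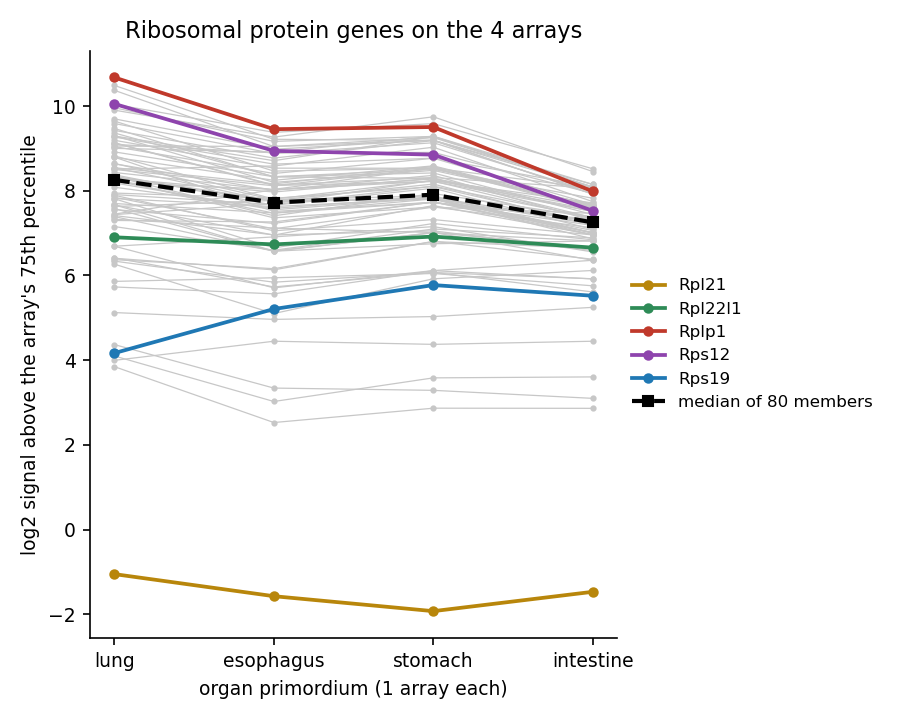
Levels of the 80 ribosomal protein genes well above background on all 4 arrays, as log2 signal over the array's 75th percentile (vertical axis) for each organ (horizontal axis, 1 array each). Each line is 1 gene, 5 genes are coloured and the dashed black line is the median, which was 8.26 on lung and 7.25 on intestine on this scale and lost that order after quantile normalization; lines join arrays for reading only.

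Between lung and intestine the median difference over the 80 members was 0.96 (log2), against 0.14 over all 10416 genes compared, and 35 members were at least 2-fold higher on lung and 1 was lower. Over all genes the shares were 12.2% higher and 8.40% lower. The member median became -0.09 after quantile normalization, with 4 members higher and 4 lower, and -0.58 after normexp, with 2 higher and 19 lower. The direction of this comparison depended on the scaling.

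Between lung and esophagus the median was 0.63, against 0.28 over all 10513 genes, and 18 members were at least 2-fold higher on lung and 1 lower, where 16.2% and 9.42% of all genes were. Between lung and stomach it was 0.33, against 0.12 over 10503 genes, with 8 members higher and 1 lower and 14.0% and 9.87% of all genes. The share of members that were higher on lung was thus above that of all genes against esophagus and below it against stomach. Quantile normalization gave medians of 0.11 and 0.04, with 0 members higher and 2 lower against esophagus and 1 higher and 2 lower against stomach. Normexp reversed both medians, to -0.74 with 28 members lower and none higher and to -0.97 with 39 lower and 1 higher.

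The other 3 comparisons leave out the dim lung array. Stomach was above intestine by a median of 0.70 over 81 members, against 0.04 over all 13808 genes, with 16 members at least 2-fold higher and 0 lower, where 7.52% and 4.87% of all genes were. Esophagus was above intestine by a median of 0.42, against -0.13 over 13895 genes, with 6 members higher and 1 lower and 11.9% and 8.71% of all genes. Esophagus was below stomach by a median of -0.26, against -0.16 over 13733 genes, with 1 member at least 2-fold higher, 0 lower, and 5.63% and 4.27% of all genes. After quantile normalization these 3 medians were 0.00, -0.05 and -0.01. After normexp they were 0.52, 0.22 and -0.21, and centring on the median instead of the 75th percentile turned the esophagus to intestine median to -0.08.

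The members were also split by subunit. The lung to intestine median was 0.99 for the 32 small-subunit genes and 0.94 for the 48 large-subunit genes compared, and the stomach to intestine medians were 0.79 and 0.60 (after quantile normalization -0.11 and -0.09, and 0.04 and -0.03). On the 75th percentile scale the widest gap between the subunits was for esophagus and intestine, with 0.54 for the small and 0.33 for the large subunit. The median of this pair over both subunits went from 0.42 on that scale to -0.05 after quantile normalization. Across the 5 scalings compared (75th percentile, median centring, 75th percentile over probes bright on all arrays, quantile normalization and normexp), 18 of 80 members were above intestine on lung under all of them and 7 were below under all of them. For stomach and intestine these counts were 37 and 7 of 81, for esophagus and intestine 28 and 15, and for esophagus and stomach 2 and 41. For lung against esophagus only 2 members were higher and 1 was lower under all 5, and for lung against stomach 1 was higher and 9 were lower. The share of all genes that kept a sign under all 5 was not computed, so these counts cannot be read as particular to the members.

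**Figure D2:**
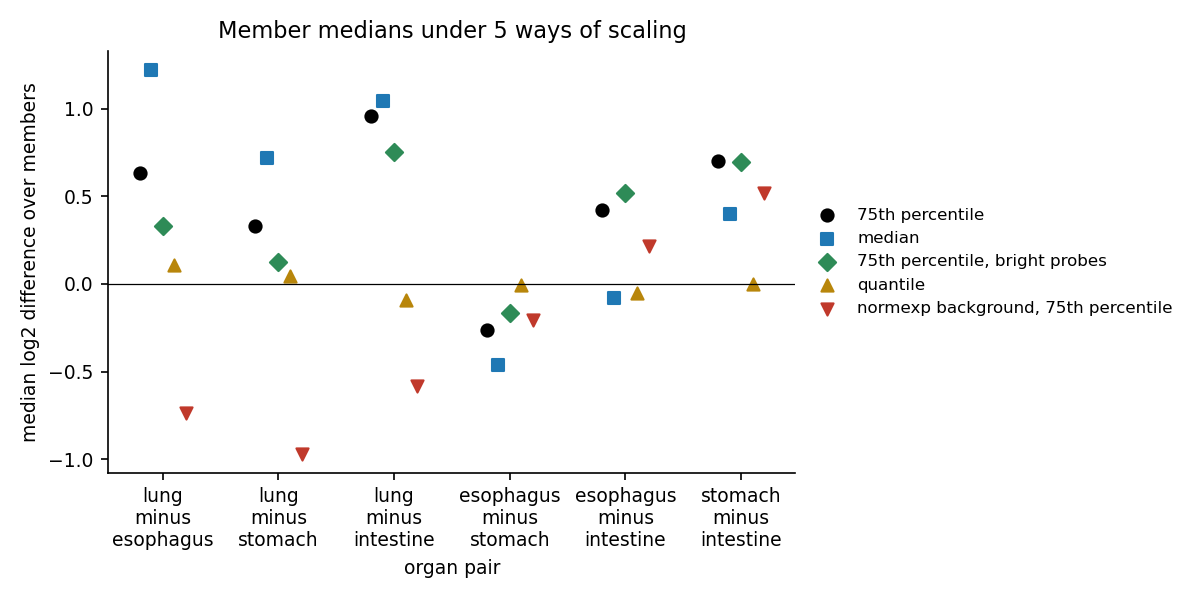
Median log2 difference over the ribosomal protein genes (vertical axis) for each organ pair (horizontal axis) under 5 ways of scaling the arrays, 1 symbol each. For lung against intestine the medians run from -0.58 (normexp) to 1.04 (median centring), and for esophagus against stomach all 5 lie at or below 0.

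The stalk of the large subunit is built by Rplp0, which anchors it, and the acidic proteins Rplp1 and Rplp2, which contact the translation factors that use GTP. Rplp1 stood at 10.68 on lung, 9.45 on esophagus, 9.50 on stomach and 7.98 on intestine, the largest range of the 80 members (2.69). The order of Rplp1 was thus lung, then stomach and esophagus within 0.05 of each other, then intestine. On lung it was 6.46-fold above intestine. The difference of 2.69 became 1.09 after quantile normalization and 1.12 after normexp, so Rplp1 was above 2-fold for lung against intestine under all 5 scalings. Against esophagus and stomach, Rplp1 on lung was 1.22 and 1.17 higher, which normexp turned to -0.06 and -0.26.

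Rplp2 had levels of 10.37 on lung, 9.04 on esophagus, 9.19 on stomach and 8.07 on intestine. Its lung to intestine difference of 2.30 became 0.58 after quantile normalization and 0.77 after normexp, under 2-fold in both. The brighter of 2 Rplp0 probes gave 10.49 on lung, 9.21 on esophagus, 9.19 on stomach and 8.15 on intestine. Lung was again the highest and intestine the lowest array. The dimmer Rplp0 probe gave 7.14, 7.24, 7.61 and 7.23 in the same order of organs, so that lung was the lowest array there. The lung to intestine difference of Rplp0 was 2.34 by 1 probe and -0.09 by the other.

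In the small subunit, Rps12 had the second largest range of all members. Its levels were 10.05 on lung, 8.94 on esophagus, 8.85 on stomach and 7.53 on intestine. Lung was 5.76-fold above intestine, and the difference of 2.53 was 1.27 after quantile normalization and 1.01 after normexp. Rps12 and Rplp1 were the only members at least 2-fold higher on lung than on intestine under all 5 scalings. Each was read by 1 probe only, so no second probe could be set beside these values. Rps12 was also above intestine on esophagus by 1.42 and on stomach by 1.33, and kept that sign after quantile normalization (0.76 and 0.53) and after normexp (1.26 and 1.096).

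Rps27a, made as a fusion of ubiquitin with the ribosomal protein, stood at 9.47 on lung, 8.33 on esophagus, 8.29 on stomach and 7.36 on intestine. Its lung to intestine difference of 2.11 was 1.08 after quantile normalization and 0.54 after normexp. Rps4x, the X-linked form of Rps4, stood at 9.36 on lung, 8.33 on esophagus, 8.42 on stomach and 7.44 on intestine. Its lung to intestine difference of 1.93 was 0.90 after quantile normalization and 0.42 after normexp. Both genes were above intestine on lung under these scalings, but by less than on the 75th percentile scale.

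Rps19, whose loss of 1 copy causes Diamond-Blackfan anemia in people, ran the other way. It had levels of 4.17 on lung, 5.21 on esophagus, 5.77 on stomach and 5.52 on intestine, by a single probe. Lung was the lowest array, 2.06-fold below esophagus, 3.05-fold below stomach and 2.56-fold below intestine. On the 75th percentile scale it was the only member at least 2-fold lower on lung in any of the 3 comparisons. The lung to stomach difference of -1.61 was between -1.22 and -2.80 over the 5 scalings and the lung to intestine difference of -1.35 between -1.27 and -2.71, while the lung to esophagus difference of -1.04 shrank to -0.46 with median centring. The other 3 organs lay within 0.57 of each other.

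Rps15 and Rps6 were lowest on esophagus, except after normexp, which put lung below it by -0.17 and -0.43. Rps15 stood at 6.27 on lung, 5.10 on esophagus, 5.92 on stomach and 6.12 on intestine, and was the only member at least 2-fold lower on esophagus than on intestine (-1.02; from -0.92 to -1.52 over the 5 scalings). Rps6, the substrate of the S6 kinases, stood at 6.69, 5.71, 6.11 and 6.36 in the same order of organs. Its difference between esophagus and intestine was -0.65, and it was negative under all 5 scalings, from -0.55 to -1.15. Rps26 stood at 7.44 on lung, 7.70 on esophagus, 8.25 on stomach and 7.55 on intestine, lowest on lung except with median centring, which put lung above esophagus by 0.33. Rpsa, known both as a small-subunit protein and as a laminin receptor, differed by no more than 0.29 between any 2 organs on this scale, with 5.86 on lung, 5.94 on esophagus, 6.05 on stomach and 5.75 on intestine.

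In the large subunit outside the stalk, Rpl13, Rpl4, Rpl18 and Rpl27a were low on lung against intestine relative to the other members. Rpl13 stood at 7.45 on lung, 8.02 on esophagus, 8.28 on stomach and 7.60 on intestine. Its lung value was the lowest of the 4 (level with esophagus under median centring), while the median of the members was highest there on this scale. The differences of Rpl13 on lung from esophagus, stomach and intestine were -0.58, -0.83 and -0.15 by this probe. They were -0.01, -0.55 and -0.16 by its dimmer probe, also well above background on all arrays. Set against the member median of the same pair, Rpl13 on lung was -1.21 against esophagus, -1.16 against stomach and -1.11 against intestine by the brighter probe. Rpl4, with 3.99 on lung, 4.45 on esophagus, 4.37 on stomach and 4.45 on intestine, was -1.41 against intestine by that measure. Rpl18 was -1.20 and Rpl27a -1.08 against intestine. Against esophagus and stomach the relative values were smaller, -0.36 and -0.73 for Rpl18 and -0.47 and -0.24 for Rpl27a. The lowest level of both genes was on esophagus, not on lung.

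This measure, a member's difference minus the median over members, does not move with a constant scaling of an array. By it, 13 of 80 members were at least 2-fold apart between lung and intestine, where 20.1% of all genes were that far from their own median. The 6 higher on lung were Rplp1 (1.73), Rps12 (1.57), Rplp0 (1.38), Rplp2 (1.34), Rps27a (1.15) and Rps7 (1.05). These are values of the brightest probe. The dimmer Rplp0 probe gave a lung to intestine difference of -0.09 before the members' median of 0.96 was subtracted. The 7 lower were Rps19 (-2.31), Rpl4 (-1.41), Rpl18 (-1.20), Rpl10a (-1.15), Rpl13 (-1.11), Rpl27a (-1.08) and Rps26 (-1.07). Rps7 and Rpl10a fell outside the rule for named genes and are listed because the counts are small. The other pairs had 3 of 80 members apart for lung against esophagus (22.9% of all genes), 3 of 80 for lung against stomach (23.3%), 4 of 81 for esophagus against intestine (20.4%), 2 of 81 for stomach against intestine (12.3%) and 1 of 81 for esophagus against stomach (10.3%). In every pair the members' share was below that of all genes. On the 75th percentile scale each of Rpl22l1 (range 0.26), Rpl27a (0.28), Rpsa (0.29) and Rpl4 (0.45) had its own 4 values within 0.5 of each other. This did not hold under other scalings: normexp put lung below every other organ for these 4 genes, by differences from -1.18 to -1.80, median centring put lung 0.75 above esophagus for Rpl22l1, and quantile normalization gave -0.82 for lung minus esophagus of Rpl4.

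Other members known for effects in single tissues lay closer to the members' median. Rpl11 and Rpl5, which with 5S rRNA bind Mdm2 when ribosome assembly fails, had levels of 9.19 and 8.34 on lung, 8.53 and 7.41 on esophagus, 8.53 and 7.93 on stomach and 7.57 and 7.37 on intestine. Against the member median, lung to intestine was 0.66 for Rpl11 and 0.01 for Rpl5. Rpl38, which is needed for the translation of Hox mRNAs in the axial skeleton, stood at 8.54 on lung, 8.16 on esophagus, 8.57 on stomach and 7.60 on intestine, a relative difference of -0.02. Rpl21 was read by a dim probe, with -1.05 on lung, -1.57 on esophagus, -1.93 on stomach and -1.47 on intestine, below the 75th percentile on all arrays.

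Some members are paralogs known for restricted use. Rpl3l, the striated muscle form of Rpl3, was not well above background on any array, the esophagus included, where the heart and muscle markers were present. Rpl39l, known from testis, was well above background on 3 arrays with -3.16 on esophagus, -4.88 on stomach and -4.43 on intestine, and was not well above background on lung. Esophagus was 3.28-fold above stomach and 2.42-fold above intestine for Rpl39l by this probe; normexp lowered the first difference from 1.72 to 0.29, and averaging with its other probe, which was not well above background on lung, esophagus or stomach, turned the second from 1.27 to -0.63.

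Rpl22l1, the paralog of Rpl22, stood at 6.90 on lung, 6.73 on esophagus, 6.92 on stomach and 6.66 on intestine. Rpl22 itself stood at 6.69, 6.91, 7.15 and 6.55. On the 75th percentile scale the paralog thus differed by at most 0.26 and its partner by at most 0.60 between organs. Normexp gave lung minus stomach as -1.34 for Rpl22l1 and -1.72 for Rpl22, and median centring gave lung minus esophagus as 0.75 for Rpl22l1. The dimmer probe of Rpl22 turned lung minus esophagus from -0.22 to 0.61. Rps27l, a target of p53, stood at 6.34 on lung, 5.84 on esophagus, 6.07 on stomach and 5.61 on intestine, and its partner Rps27 at 9.27, 8.63, 8.77 and 7.67. Lung to intestine was 0.73 for Rps27l and 1.59 for Rps27. Rpl7l1 stood at 3.85, 2.53, 2.87 and 2.86, highest on lung by 1.32 over esophagus, but its dimmer probe gave -0.79, -0.65, -0.04 and 0.20, lowest on lung. Many ribosomal protein genes have near-identical processed copies in the genome, so a probe may also bind their transcripts, and the values here are those of the probe.

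In the 3 comparisons with intestine, the size of a member's difference went with the brightness of its probe. Taking the level from the 2 organs outside a pair, the correlation across 80 members was 0.82 (Spearman 0.87) for stomach minus intestine, 0.66 (0.83) for esophagus minus intestine and 0.50 (0.67) for lung minus intestine. In the 3 pairs without intestine no such relation was seen, with 0.045 (0.099) for lung minus esophagus, 0.0060 (0.14) for lung minus stomach and -0.082 (0.21) for esophagus minus stomach. Across the 9417 other genes the correlations for the intestine pairs were 0.14, -0.06 and -0.09; genes share the arrays and are not independent replicates. Lung minus intestine had a median of 0.10 in the 9 members with levels of 4 to 6, 0.42 in the 8 from 6 to 7, 0.92 in the 25 from 7 to 8 and 1.40 in the 34 at 8 or more. Other genes of the same brightness also had larger differences, with medians of 0.25 (745 genes), 0.38 (96), 0.57 (49) and 1.15 (15) in these classes. In the brightest class, stomach minus intestine was 0.97 for 39 members and 1.06 for 15 other genes, so the members lay beside other equally bright genes there.

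**Figure D3:**
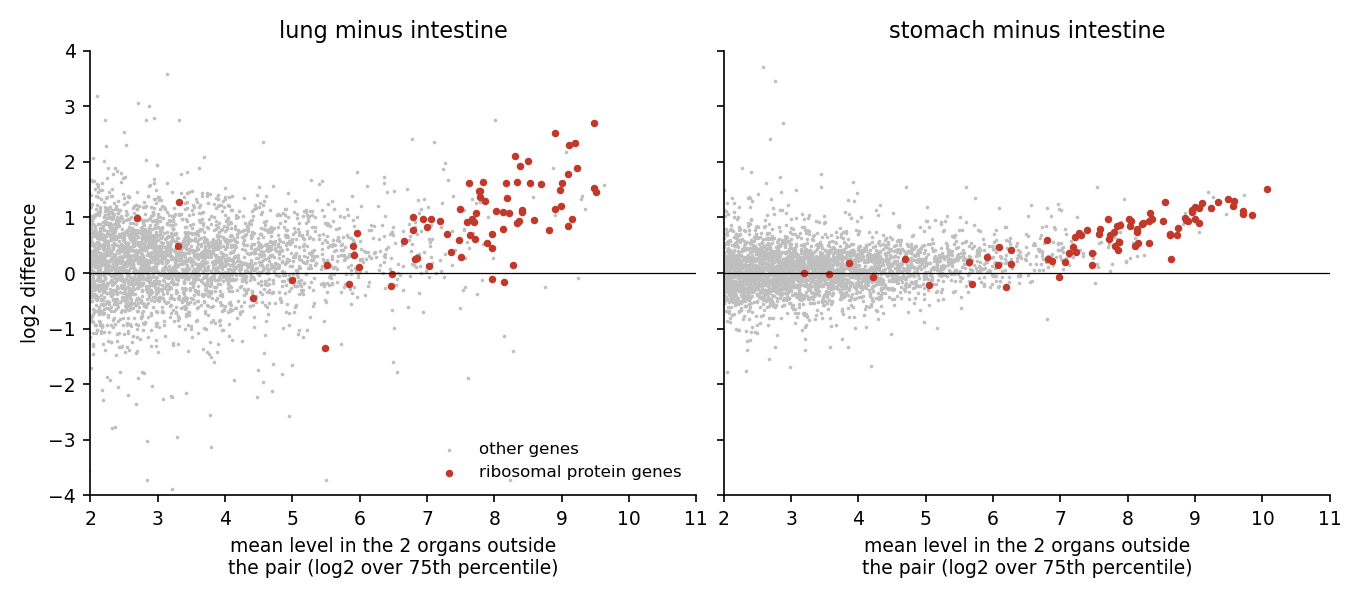
Log2 difference between organs (vertical axis) against the gene's mean level in the 2 organs outside the pair (horizontal axis), for lung minus intestine on the left and stomach minus intestine on the right. Red points are the 80 ribosomal protein genes and grey points other genes well above background on all arrays; points outside the axes are not drawn. Among the red points differences are larger for brighter probes in both panels, with correlations of 0.50 and 0.82, which scaling an array by a constant does not change; for the grey points the correlations are -0.09 and 0.14.

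The spiked control RNAs moved with brightness as well. For all 10 control probes the unscaled signal was lower on lung than on intestine. The difference was -5.11 (log2) on average over 3 of middle signal and -4.26 over the brightest 2, a shift of 0.85 from middle to bright. The remaining controls did not enter this shift, and the dimmest 2 had smaller lung to intestine differences, of -1.89 and -2.84. The same shift was 0.38 for stomach against intestine, 0.36 for esophagus against intestine, 0.49 for lung against esophagus, 0.46 for lung against stomach and -0.03 for esophagus against stomach. The median signals of the members, 9789 on lung, 79981 on esophagus, 76812 on stomach and 151059 on intestine, lay within the range of the brightest 2 controls on lung and on intestine, and below it on esophagus and stomach. The controls carry no organ RNA. The part of this shift in the members' differences was not tested.

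Probes of the same gene gave different answers. Of 26 members with more than 1 probe well above background on all arrays, the brightest probe gave the larger lung minus intestine difference in 22, with medians of 0.97 for the brightest and 0.31 for the dimmest probe. It did so in 23 of 26 for esophagus minus intestine and 23 of 26 for stomach minus intestine, but in 13 of 26 for esophagus minus stomach. The brightest and dimmest probes had opposite signs in 14 of the 26 for lung minus esophagus and 14 for lung minus stomach, in 11 for esophagus minus intestine, in 7 each for lung minus intestine and stomach minus intestine, and in 2 for esophagus minus stomach. Rpl29, with 4 probes, ran from 0.49 by the brightest to -1.84 by the dimmest. For Rpl7 the values were 1.11 and -0.64, for Rpl6 0.61 and -0.92, for Rpl19 1.65 and -0.05 and for Rps3a1 0.38 and -0.73. Rpl23a (1.08 and 1.02), Rps18 (1.45 and 1.24) and Rps28 (0.97 and 0.86) had probes that differed by little.

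**Figure D4:**
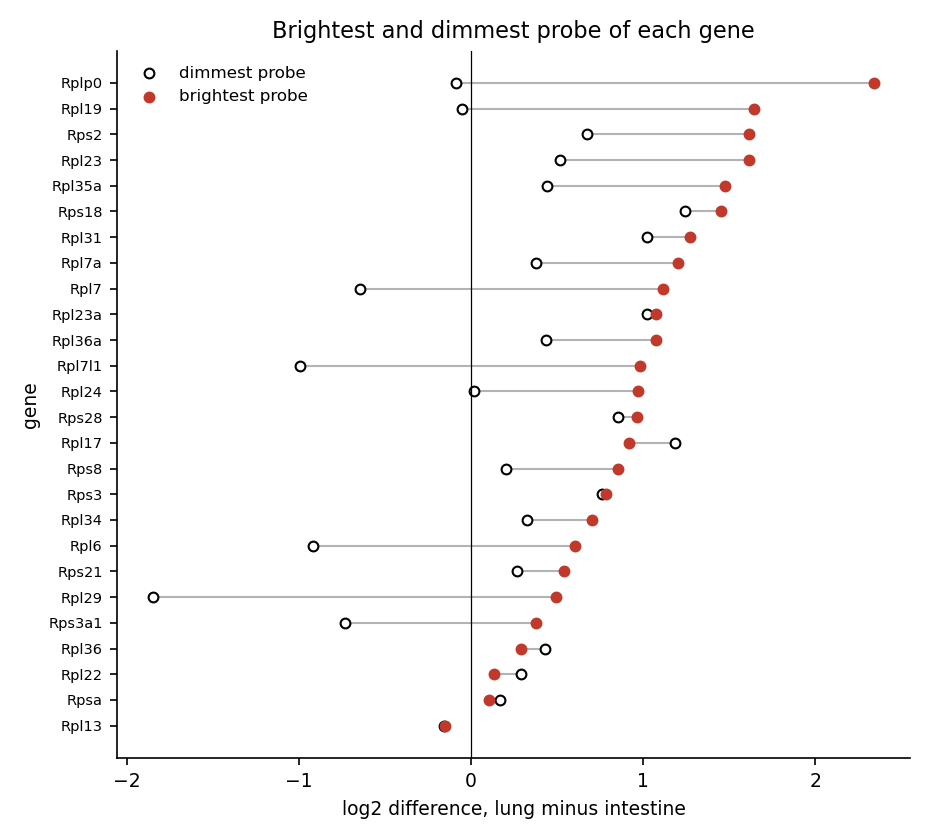
Log2 difference between lung and intestine (horizontal axis, 75th percentile scale) for the brightest probe (red) and the dimmest probe (open) of each of 26 ribosomal protein genes (vertical axis) with more than 1 probe well above background on all arrays. The red point lies to the right in 22 genes, and the widest gaps are those of Rplp0 (2.34 and -0.09) and Rpl29 (0.49 and -1.84).

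Genes of the same pathway that the symbol rule for members did not take in were set beside the members. Fau, which encodes a ribosomal protein fused to a ubiquitin-like protein, differed between lung and intestine by 1.05. Of 17 translation factors and other genes known for a 5′ pyrimidine run, 7 were at least 2-fold higher on lung than on intestine and 0 lower (12.2% and 8.40% of all genes), with a median of 0.85 (0.30 after quantile normalization and -0.60 after normexp). Rack1, a scaffold protein bound to the small subunit, stood at 9.73 on lung, 8.77 on esophagus, 8.97 on stomach and 7.84 on intestine. Eef2, the translocation factor, stood at 4.51 on lung, 4.92 on esophagus, 4.70 on stomach and 4.96 on intestine.

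Genes that serve ribosome assembly and the mitochondrial ribosome had smaller lung to intestine differences than the cytosolic members on the 75th percentile scale. The median was 0.15 over 28 assembly genes (1 higher, 2 lower) and 0.18 over 77 mitochondrial ribosomal protein genes (1 higher, 2 lower), and after quantile normalization both were -0.04. After normexp they were -0.70 and -1.01. The lists were not matched to the members in probe brightness. For esophagus minus intestine the mitochondrial list was at -0.36 with 0 of 77 higher and 7 lower (11.9% and 8.71% of all genes), -0.23 after quantile normalization and -0.47 after normexp, where the cytosolic members were at 0.42, -0.05 and 0.22. Of 4 genes listed for the Myc family, some of which are known to activate ribosome genes, Mycn stood at 3.69 on lung, 2.01 on esophagus, 2.51 on stomach and 2.52 on intestine, and Myc at 2.69, 0.72, 0.997 and 1.58. Both were at least 2-fold higher on lung than on intestine, which no gene of the list was after quantile normalization or normexp. Mycl stood at -1.13, -0.55, -0.58 and -0.99 and Max, the partner of Myc, at 3.31, 2.92, 3.11 and 3.45, both lower on lung than on intestine by this scale. The array's probe for 28S rRNA (Rn28s1) was at 2.78 on lung, 8.42 on esophagus, 8.05 on stomach and 6.51 on intestine, lowest on lung, and Rmrp, the RNA of a nuclease that cuts rRNA precursors, was at -1.58, 2.52, 3.90 and 2.31. On the 75th percentile scale the red cell markers were highest on lung, at 10.44 against 8.44 to 8.97 elsewhere in summed log2 level. Of these markers only Klf1 was lower on lung than on intestine (-0.36). The members' median was also highest on lung on this scale, but not under every scaling. The part of red cells in the members' values was not tested. The liver markers were highest on intestine, where the members were lowest on this scale, at 5.93 against 1.71 to 4.72 elsewhere, and their part was not tested either.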

How the data were processed

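The 4 samples were hybridised to single-colour Agilent mouse arrays (design 014868), and the authors scanned and quantified them with Agilent Feature Extraction 10.5.1.1 (protocol GE1_105_Dec08, build mm8), per the file headers. The deposited scanner files hold processed intensity values on a linear scale. The authors' deposited table of log2 values closely matched those intensities on all 4 arrays once log2 transformed and centred on the array's 75th percentile, and served as an alternative. Outlier spots were left out (69 probes lost all their spots on an array), spots of a probe were averaged as log2 values, the 75th percentile over non-control probes was subtracted, and each gene was read by its brightest probe. A probe not well above background on 1 array of a pair entered at the higher of its value and the lowest signal well above background, without a fold where that gave less than none or both were dim. Probes were named through RefSeq accessions: 24338 of 41105 had a symbol.

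The members and gene lists were chosen with earlier results of these data known. Named members were paralogs and partners, stalk genes, Rpsa, Rps19, Rpl5, Rpl11, Rpl38, Rps6, the 3 highest and 3 lowest of each pair, the 5 largest and 5 smallest ranges, members not well above background on an array and members whose probes differed by 1 or more (46 genes). Alternatives were median centring, a percentile over bright probes, quantile normalization, normexp (limma 3.58.1, R 4.3.3, offset 50, on median spot signals, since the files used here hold no mean signal), the mean of all probes, both filters on dim probes and the deposited table. The functions (Python 3.11.15, pandas 2.3.3, numpy 2.4.6) were tested on simulated data. 1 gene of the lists is not reported here.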

Additional observations from a re-analysis of the deposited data

How the results depend on the processing

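The results were recomputed under 8 other settings. The deposited table moved none of the 18 pair summaries, and the scaling moved most of them. Medians over members are given as lung minus esophagus, lung minus stomach, lung minus intestine, esophagus minus stomach, esophagus minus intestine and stomach minus intestine.

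With median centring the medians were 1.22, 0.72 and -0.46 for lung minus esophagus, lung minus stomach and esophagus minus stomach, -0.080 for esophagus minus intestine and 0.40 for stomach minus intestine, and 52, 22, 2, 4 and 2 members were at least 2-fold apart in these pairs. With the percentile taken over bright probes the lung medians were 0.33, 0.13 and 0.75, with 3 and 4 members apart from esophagus and stomach and 14 for esophagus minus intestine. With quantile normalization the 6 medians were 0.11, 0.043, -0.094, -0.0080, -0.051 and 0.00, with 2, 3, 8, 1, 1 and 0 members apart, and relative to the members' median 7 were apart for lung minus intestine and 0 for both other intestine pairs. With normexp the lung medians were -0.74, -0.97 and -0.58 and the intestine ones 0.22 and 0.52, with 40 members apart from stomach and 21 from intestine on lung, 0 for esophagus minus stomach and 7 for stomach minus intestine. Relative to the members' median, normexp left 5 apart for lung minus stomach, 0 for esophagus minus stomach and 1 for stomach minus intestine. The offset of 50 exceeds the lung array's 75th percentile of 32.0. Averaging all probes gave 0.79 for lung minus intestine, 0.25 for esophagus minus intestine and 0.56 for stomach minus intestine, and 0 members apart for esophagus minus stomach. Keeping only genes bright on all arrays removed Rpl39l, so that 0 members were apart for esophagus minus stomach, also relative to the median, and 1 for stomach minus intestine. Without a filter 5 were apart relative to the median for lung minus esophagus.

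Of 56 differences of at least 2-fold in named members, normexp reversed 22, quantile normalization 5 and the mean of all probes 1. Normexp turned lung minus esophagus to -0.24 for Rpl10, -0.13 for Rpl14, -0.38 for Rpl23, -0.28 for Rpl7, -0.081 for Rpl9, -0.27 for Rplp0, -0.056 for Rplp1, -0.023 for Rplp2, -0.25 for Rps12, -0.17 for Rps15, -0.093 for Rps27a and -0.18 for Rps4x. It turned lung minus stomach to -0.27 for Rpl9, -0.13 for Rplp0, -0.26 for Rplp1, -0.15 for Rplp2, -0.085 for Rps12 and -0.23 for Rps27a. Under normexp lung minus intestine was -1.63 for Rpl36a, -0.40 for Rpl7, -0.37 for Rpl7a and -0.18 for Rps18. Without normexp the 3 probes of Rpl36a gave 1.07, 0.43 and 0.05 for lung minus intestine. Whether Rpl36a was read by the same probe under normexp was not tested. Its change therefore cannot be put down to the scaling alone. Quantile normalization turned lung minus intestine to -0.18 for Rpl7, -0.21 for Rpl7a and -0.22 for Rps18, and stomach minus intestine to -0.29 for Rplp0 and -0.030 for Rplp2. The mean of all probes turned esophagus minus intestine to -0.63 for Rpl39l. Beyond the changes that these settings make by construction, the cause was not tested. With 1 array an organ, precision is limited to the spread of copies within an array, and 39.0% of the lung spots were well above background, so that low members have the least support there.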
